A study of Schizosaccharomyces pombe with 16 samples.

Results

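The introns described here belong to fission yeast genes with a single intron on a splicing-sensitive microarray, an array that carries separate probes for exons, introns and exon-exon junctions. A gene was included if its intron probes carried exactly 1 intron number, which gave 1053 intron probes of 1050 genes among 4885 intron probes of 2327 genes. An exon probe of the same gene was present for 1044 of these introns, and 950 introns of 947 genes had enough values to be tested. The study compared Schizosaccharomyces pombe strains with altered RNA polymerase II against wild type (WT) on 16 two-colour arrays, with the mutant and the WT RNA of each array in opposite dyes. Cells were taken at mid-log growth in YES, a rich medium, total RNA was used, and replicates came from separate cultures. The labels do not say if several arrays drew on the same WT extract, so comparisons of different mutants with WT may share control RNA. Each mutant carried an altered rpb1, the gene of the largest polymerase subunit, with 18 repeats called the rump by the submitters followed by 14 altered repeats. Serine 7 of those 14 repeats was alanine in S7A (4 arrays) and glutamate in S7E (3 arrays), serine 2 was alanine in S2A (4 arrays), and both serines were alanine in the double mutant S2A/S7A (5 arrays). Any effect of keeping the 18 rump repeats is therefore common to the 4 mutants, and the build of the WT allele is not described in the labels.

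The tail of the largest polymerase subunit, the C-terminal domain, consists of a repeated heptad whose serines are phosphorylated and dephosphorylated as the enzyme moves along a gene. Phosphorylated serine 2 is known for its part in elongation, 3' end formation and the recruitment of RNA processing factors, and phosphorylated serine 7 is best known from small nuclear RNA genes. The members include 1 mitochondrial gene, SPMIT.05, which this background on nuclear genes does not cover. Nuclear introns of fission yeast are short and are removed by the spliceosome largely while the RNA is being made. A probe inside an intron therefore reports unspliced RNA and released intron RNA, an exon probe reports all RNA of the gene, and a probe across the exon-exon junction reports spliced RNA.

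For each intron the exon mean of the same gene was taken off the intron probe on every array, and the difference is called intron minus exon here. All values are on the log2 scale as deposited, taken as mutant over WT, so that -1 is a halving and 1 a doubling of the intron signal relative to the exons of that gene. The sources state neither the base of the logarithm nor the direction of the ratio in words, and both are taken as likely. An intron is said to be higher or lower where limma's test, fitted over all 4445 testable introns of the array, gave a Benjamini-Hochberg adjusted p under 0.05. Most members rest on few probes, since 1031 of the 1041 genes with an exon probe had only 1.

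The arrays carried values for 769 to 1020 of the 1044 introns with an exon probe. The median intron minus exon of the S7A arrays was -0.17, -0.14, -0.19 and -0.01. The fourth S7A array stood apart from the other three, and 51.1% of its introns were below 0 against 68.6% to 73.5% on the others. The S2A medians were 0.11, 0.01, 0.02 and -0.01, and those of S2A/S7A were -0.07, -0.08, -0.01, -0.05 and 0.03. The S7E medians were -0.07, 0.02 and 0.03, and the first S7E array had the widest spread of all, with an interquartile range of 0.619 against 0.388 to 0.524 on the other 15 arrays. For part of the results that rest on these 2 arrays, values without them are given too. The first and later introns of genes with several introns had medians on the same S7A arrays of -0.14 to 0.02 and of -0.17 to -0.01, so the low S7A medians were shared by introns of all kinds.

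**Figure D1:**
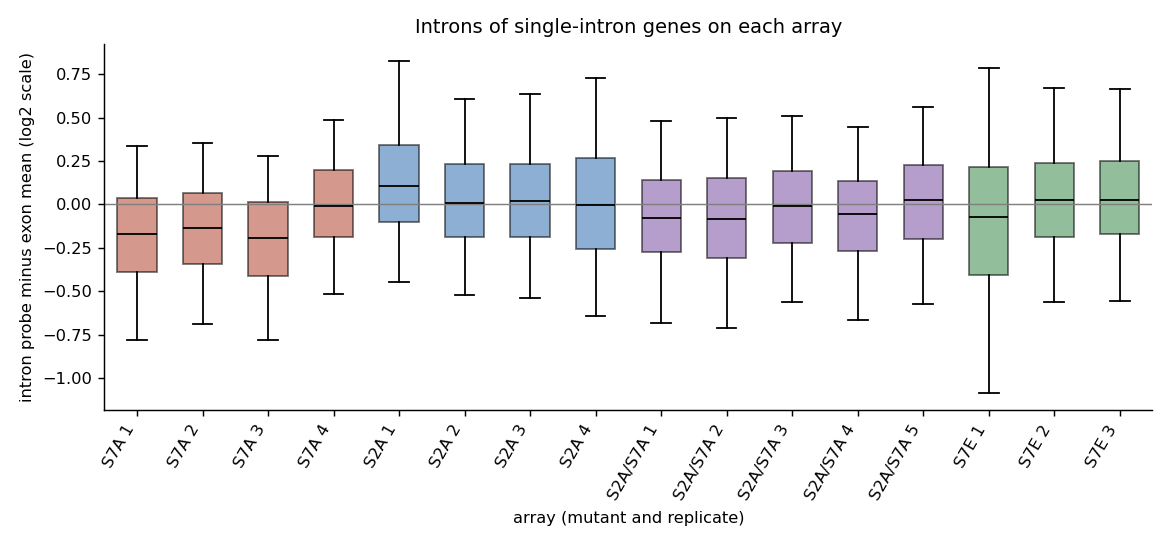
Intron minus exon (log2 scale) of the introns of single-intron genes on each array, with the mutant and replicate on the horizontal axis; boxes span the quartiles with the median as a line, and whiskers run from the 5th to the 95th percentile. The medians of S7A replicates 1 to 3 lie between -0.19 and -0.14, that of S7A replicate 4 is -0.01, and S7E replicate 1 has the widest box.

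In S7A the introns of single-intron genes were mostly low against their exons: 312 of 950 were lower and 68 higher. Of all introns tested in S7A, 30.2% were lower and 6.75% higher, 37% in all, so the share called among the single-intron genes, 380 of 950, was close to that over the array. In S2A 231 were higher and 142 lower, where 20% and 19.1% of all introns were (39.1% in all). S2A/S7A had 166 higher and 255 lower introns, against 16.4% and 33.6% of all introns (50% in all). S7E had 194 higher and 210 lower, against 18.3% and 25.7% (44% in all). The median over the 950 introns was -0.13 in S7A, 0.03 in S2A, -0.03 in S2A/S7A and 0.01 in S7E, beside -0.11, 0.00, -0.09 and -0.05 over all introns. Calls above 1.5-fold were fewer. They were 63 lower and 4 higher in S7A (5.08% and 0.382% of all introns) and 24 and 51 in S2A (2.61% and 4.32%). They were 48 and 19 in S2A/S7A (5.44% and 2.09%) and 61 and 63 in S7E (6.73% and 4.95%).

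Setting the median of every array to 0 changed how the calls divided. In S7A the share of higher introns among the called ones was 17.9% as deposited and 39.0% after centring, with 216 lower and 138 higher. In S2A/S7A it was 39.4% as deposited and 57.5% after centring. Without S7A replicate 2 or replicate 4 the 68 higher introns of S7A became 36 or 44, and without S7E replicate 1 the 210 lower introns of S7E became 112.

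**Figure D2:**
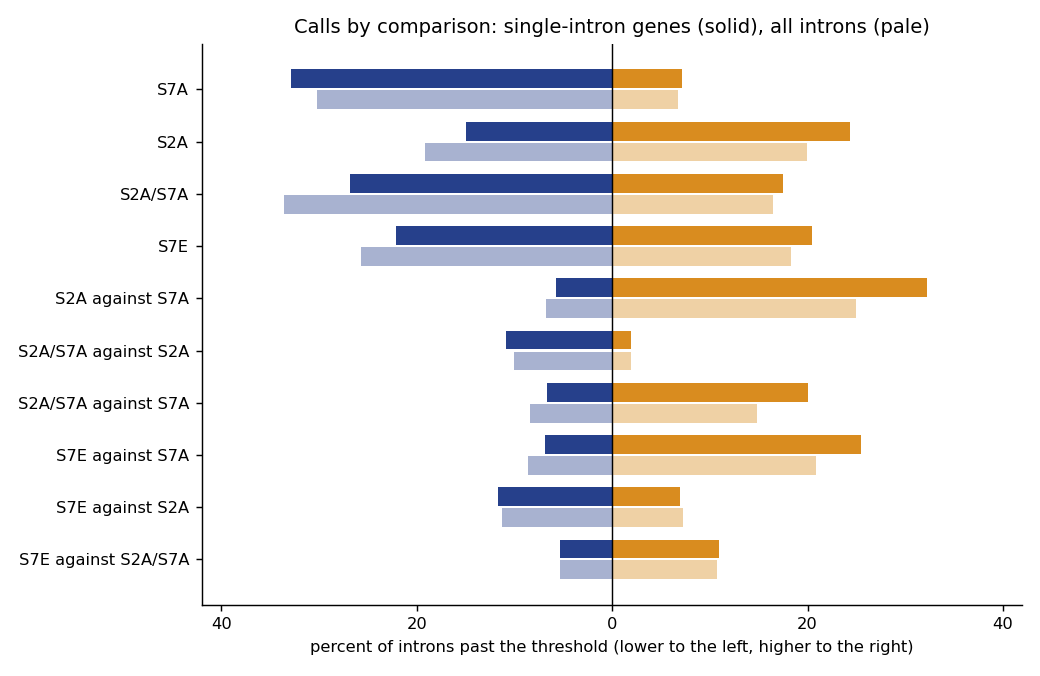
Percent of introns past the threshold in each of the 10 comparisons, lower introns to the left and higher introns to the right of 0; solid bars are the 950 introns of single-intron genes and pale bars all 4445 introns. The longest bars of the single-intron genes are the 312 lower introns of S7A (32.8%) and the 306 introns higher in S2A than in S7A (32.2%).

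A low difference can come from an intron probe that falls or an exon that rises, and the counts differed between mutants. Counts within the called introns used values as deposited and were not made for the called introns of the whole array. The median intron probe over members was -0.17, -0.11, -0.16 and -0.04 on the 4 S7A arrays. Of the 312 introns that were lower in S7A, the intron probe by itself also fell in 247 (79.2%), and the exon mean passed the threshold in neither direction in 199. Of the 68 that were higher in S7A, the intron probe rose in 16 (23.5%) and the exon mean fell in 46. Among the 950 introns the S7A intron probe fell in 387 and rose in 71, and over all introns it fell in 37.6% and rose in 6.27%. It rose in 255 and fell in 158 in S2A (19% and 22.3% of all introns), rose in 224 and fell in 270 in S2A/S7A (16.6% and 36.1%), and rose in 216 and fell in 194 in S7E (17.9% and 24.6%). The exon mean rose in 154 and fell in 162 of the 950 in S7A, where 18.1% and 16.8% of all genes did. It rose in 281 and fell in 255 in S2A (31.7% and 27.3% of all genes), in 305 and 253 in S2A/S7A (34.8% and 28.2%), and in 275 and 278 in S7E (32.6% and 28.2%). In S2A the intron probe rose in 107 of the 231 introns that were higher (46.3%), and the exon mean fell in 134 of them. It fell in 47 of the 142 that were lower (33.1%), where the exon mean rose in 105. In S2A/S7A the intron probe fell in 134 of 255 lower introns (52.5%) and rose in 63 of 166 higher ones (38.0%). In S7E it fell in 97 of 210 lower introns (46.2%) and rose in 80 of 194 higher ones (41.2%). On every array the difference was lower where the exon mean was higher, with r across introns between -0.70 and -0.37; the exon value enters both quantities and introns are not independent replicates.

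**Figure D3:**
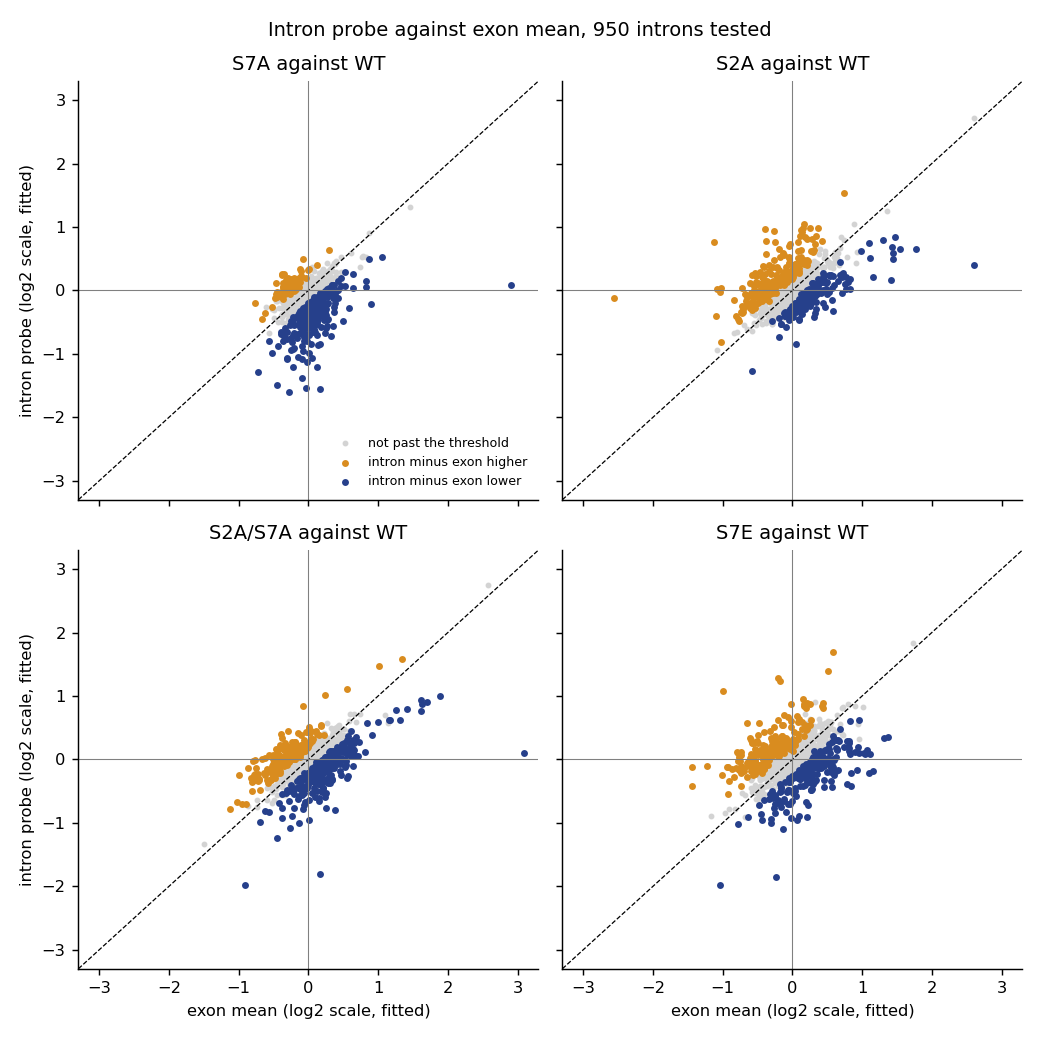
Fitted intron probe against fitted exon mean (both log2 scale, mutant against WT) for the 950 introns in each mutant; orange points are introns higher and blue points introns lower relative to their exons, and the dashed line marks equal change. In S7A the blue points spread downwards at exon values near 0, while in the other mutants many coloured points lie near 0 on the intron axis and away from 0 on the exon axis.

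The junction probe gave a readout of spliced RNA for 843 of the tested introns. In S7A it was higher relative to the exon mean in 116 and lower in 17, where 11.7% and 2.01% of all junctions were. It was higher in 38 and lower in 68 in S2A (6.5% and 7.99% of all junctions), higher in 52 and lower in 44 in S2A/S7A (7.61% and 5.1%), and higher in 34 and lower in 56 in S7E (5.4% and 4.7%). The junction and intron differences share the exon mean, so their counts are not independent.

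The intron of edc3, which encodes an enhancer of mRNA decapping, was among the introns that fell furthest in S7A. Its intron probe read -1.72, -1.66, -1.68 and -1.14 on the 4 S7A arrays, while the exon mean read 0.08, 0.26, 0.20 and 0.12. All 4 arrays were low at the intron and slightly above 0 at the exon. The difference was -1.72 (SE 0.08, adjusted p = 2.44e-10), and the junction minus exon was higher, at 0.29 (adjusted p = 0.0023). In S2A the 4 intron probe values were 0.34 to 0.40 and did not overlap those of S7A, and intron minus exon was 1.77 higher than in S7A (adjusted p = 1.35e-08). The S7E arrays read -0.68, -1.12 and -1.13 at the intron probe, a difference of -1.03 (SE 0.10, adjusted p = 8.84e-07).

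The intron of cyp9, a cyclophilin-type prolyl isomerase gene, read -1.77, -1.80, -1.72 and -1.12 at its probe in S7A, with the exon mean between -0.35 and -0.18. The difference was -1.33 (SE 0.10, adjusted p = 4.65e-08), and the junction minus exon rose by 0.40 (adjusted p = 2.87e-05) with all 4 arrays between 0.34 and 0.45. S2A read 0.20 to 0.44 at the same intron probe, and the 2 mutants did not overlap. Replicate 4 gave the smallest S7A value for both edc3 and cyp9 and still lay below every S2A array at both intron probes.

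The intron of dnt1, which encodes a nucleolar protein that restrains the septation initiation network, fell in S7A with an exon mean that did not pass the threshold (adjusted p = 0.75). The intron probe read -1.87, -1.50, -1.40 and -1.37 and the exon mean 0.05, -0.09, -0.05 and -0.02. Intron minus exon was -1.50 (SE 0.10, adjusted p = 5.29e-09), -0.66 in S2A/S7A and -0.93 in S7E. In S2A it was 0.26 (adjusted p = 0.041), a call that ended without S2A replicate 4 (0.16, adjusted p = 0.255), without S2A replicate 1 or 2 (adjusted p = 0.0734 and 0.0803) and under several other settings. The junction of dnt1 did not pass the threshold in S7A (-0.10, adjusted p = 0.52). The intron of ape4, a vacuolar aminopeptidase gene, read -1.59, -1.41, -1.56 and -0.95 at its probe in S7A with the exon between -0.20 and -0.03, a difference of -1.29 (SE 0.10, adjusted p = 4.65e-08). Its exon did not pass the threshold in S7A (adjusted p = 0.23), and its S2A intron values of -0.25 to 0.42 lay above all 4 S7A values. SPAC4A8.02c, named here only by its ID, reached -1.33 in S7A and -1.12 in S7E, with a junction that rose by 0.29 in S7A. The intron of gad8, which encodes a protein kinase downstream of TOR complex 2, was at -1.01 in S7A with a junction 0.25 higher (adjusted p = 0.006).

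The highest introns in S7A were changed less. The 6 selected by rule ran from 0.53 for mfm3, a gene of the M-factor mating pheromone, to 0.64 for SPAC22E12.18. In 5 of these 6 the exon mean fell, by 0.35 to 0.77, among them nas6 (a proteasome assembly chaperone), tad3 (a subunit of the tRNA adenosine deaminase) and rim1 (a mitochondrial DNA-binding protein). The sixth was rpl102, a gene of large ribosomal subunit protein L1, whose intron probe rose by 0.50 while its exon mean was -0.08 (adjusted p = 0.46).

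A set of introns lay on opposite sides of 0 in S7A and S2A. The intron of pho8, which encodes the vacuolar alkaline phosphatase, read -1.38, -1.20, -1.42 and -0.53 at its probe in S7A. It read 0.97, 1.07, 0.89 and 1.01 in S2A and 0.53, 0.41, 0.53, 0.40 and 0.48 in S2A/S7A. The 3 groups did not overlap, and the exon mean stayed between -0.14 and 0.33 on those 13 arrays. The difference was -1.12 in S7A (SE 0.11, adjusted p = 7.9e-07), 0.83 in S2A (SE 0.11, adjusted p = 1.71e-05) and 0.46 in S2A/S7A (SE 0.10, adjusted p = 0.00105). S2A exceeded S7A by 1.95 (adjusted p = 8.96e-08) and S2A/S7A exceeded S7A by 1.58 (adjusted p = 1.7e-06), while S2A/S7A against S2A was -0.37 with an adjusted p of 0.12. In S7E it was -0.33 (adjusted p = 0.046), which became -0.09 (adjusted p = 0.664) without S7E replicate 1 and missed the threshold under most other settings.

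The 3 probes of mus81, which encodes a subunit of a structure-specific DNA endonuclease, moved oppositely in the same 2 mutants. The intron probe read -0.89, -0.89, -1.07 and -0.36 in S7A and 1.09, 0.91, 0.92 and 0.99 in S2A. The junction minus exon read 0.43, 0.50, 0.49 and 0.49 in S7A and -0.51, -0.54, -0.59 and -0.63 in S2A, again without overlap. The exon mean fell in S7A, by 0.56, and rose in S2A, by 0.37. On the S7E arrays the intron probe lay between -0.37 and -0.10 and the exon mean lower still, between -0.88 and -0.68. Intron minus exon was 0.60 in S2A (SE 0.08, adjusted p = 1e-05), 0.35 in S2A/S7A and 0.53 in S7E. In S7A it was -0.24 (adjusted p = 0.0199), a call that was lost without replicate 1, 2 or 3 (adjusted p = 0.147, 0.0878 and 0.115) and after centring (-0.13, adjusted p = 0.13).

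The intron of mrt4, a ribosome assembly factor gene, read 1.12, 0.70, 0.65 and 0.66 at its probe in S2A and -0.58, -0.89, -1.14 and -0.31 in S7A. Its difference was 1.16 in S2A (SE 0.08, adjusted p = 2.29e-08) and -0.67 in S7A (adjusted p = 1.15e-05). The intron of mrl1 read 1.01, 1.00, 0.97 and 0.45 in S2A and -0.71, -0.47, -0.75 and -0.07 in S7A, with differences of 0.75 and -0.63. The fourth replicate of either mutant was the value nearest 0. The intron of apt1, which encodes adenine phosphoribosyltransferase, had an S2A difference of 1.89 (SE 0.10, adjusted p = 5.05e-10), second highest among those named, with an intron probe that rose by 0.76 and an exon mean that fell by 1.13. Its intron probe fell in S7A (-0.79) and in S7E (-0.89).

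Further introns rose in S2A at the intron probe itself. That of srp54, the gene of the signal recognition particle GTPase, read 1.16, 1.05, 1.10 and 0.44, and intron minus exon was 1.20 (SE 0.10, adjusted p = 3.25e-07). That of img2, a mitochondrial ribosomal protein gene, rose by 0.84 with a junction that fell by 0.23 (adjusted p = 0.0026). That of rpl3703, a gene of large ribosomal subunit protein L37, rose by 0.97 in S2A and was at -0.06 in S2A/S7A (adjusted p = 0.63).

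**Figure D4:**
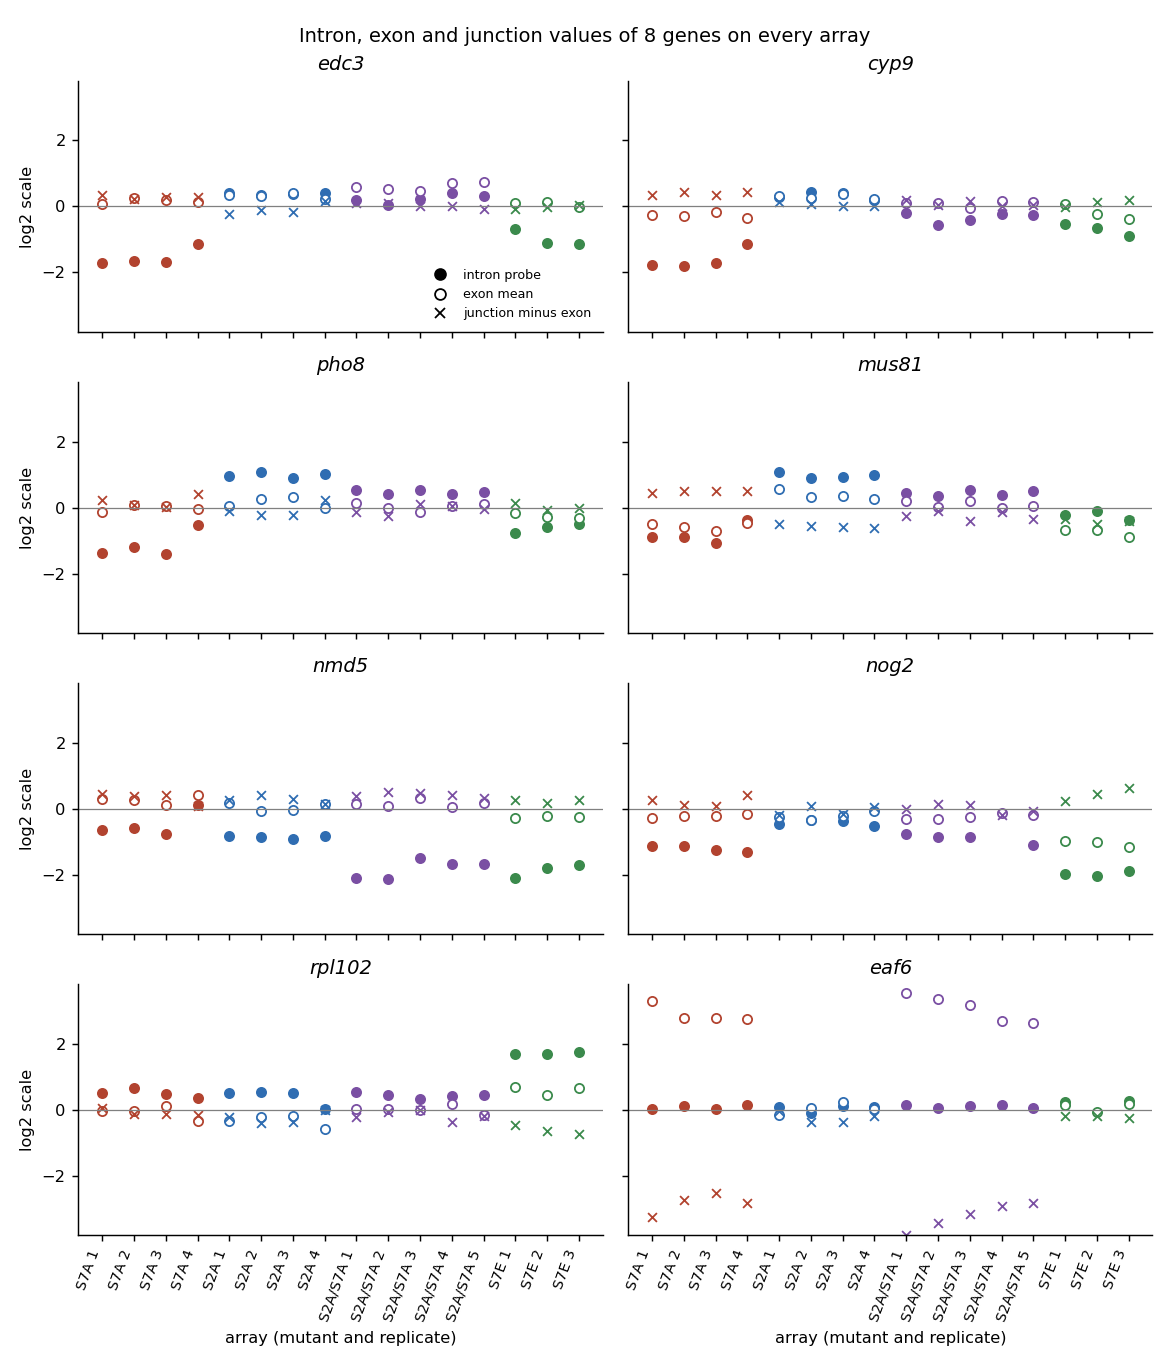
Intron probe (filled circles), exon mean (open circles) and junction minus exon (crosses) of 8 genes on every array, on the log2 scale, with arrays grouped by mutant on the horizontal axis. The intron probes of edc3, cyp9 and pho8 are low on the 4 S7A arrays beside exon values near 0, those of pho8 and mus81 are high in S2A, and in eaf6 the exon mean alone is high, between 2.64 and 3.53 on the S7A and S2A/S7A arrays.

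In the double mutant the intron that fell furthest at its own probe, among those named, was that of prs5, a gene of ribose-phosphate pyrophosphokinase. Its intron probe read -2.21, -2.28, -1.85, -1.67 and -1.98 in S2A/S7A, and the exon mean read -0.92, -0.87, -0.96, -0.90 and -0.89. Intron minus exon was -1.07 (SE 0.12, adjusted p = 1.43e-06) with a junction 0.47 higher (adjusted p = 6.02e-06). The value was -0.78 in S7A, -0.69 in S2A and 0.08 in S7E (adjusted p = 0.71).

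The intron of nmd5, which encodes an importin of the karyopherin family, was lower in each mutant against WT. Its probe read -0.64, -0.60, -0.77 and 0.12 in S7A and -0.82, -0.84, -0.92 and -0.82 in S2A. It read -2.09, -2.12, -1.49, -1.69 and -1.66 in S2A/S7A and -2.09, -1.80 and -1.72 in S7E. The S2A/S7A and S7E arrays lay below every S7A and S2A array. Intron minus exon was -0.74, -0.90, -1.97 and -1.62 in S7A, S2A, S2A/S7A and S7E, and the junction minus exon was 0.33, 0.28, 0.42 and 0.23 higher, each past the threshold. The double mutant was lower than S7A (-1.23, adjusted p = 1.05e-05) and lower than S2A (-1.07, adjusted p = 0.000178).

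The intron of pcf11, the gene of a cleavage and polyadenylation factor that binds the C-terminal domain of RNA polymerase II, fell in the strains that carry S7A. Its probe read -1.27, -1.05, -1.16 and -0.82 in S7A and -0.73, -0.73, -0.86, -0.78 and -0.85 in S2A/S7A. It read -0.15, 0.09, 0.09 and -0.35 in S2A and -0.33, 0.01 and -0.10 in S7E, above every array of the first 2 groups. The exon mean rose by 0.38 in S2A/S7A and by 0.33 in S2A, and intron minus exon was -0.99 in S7A, -1.18 in S2A/S7A (SE 0.07, adjusted p = 3.9e-09), -0.41 in S2A and -0.34 in S7E. The S7E call ended without S7E replicate 1 (-0.27, adjusted p = 0.11).

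Among factors of the splicing and transcription machinery, the intron of cwf29, a spliceosomal protein gene, reached -0.96 in S2A/S7A (SE 0.06, adjusted p = 2.19e-09) with all 5 arrays between -1.01 and -0.91. The intron of rpc34, the gene of an RNA polymerase III subunit, read -1.31, -1.11, -1.29 and -0.55 at its probe in S7A and -1.21, -1.28, -1.01, -0.92 and -0.99 in S2A/S7A. Its junction minus exon was 0.20 and 0.17 higher in these 2 mutants. The intron of atx1, a copper chaperone gene, fell by 1.24 at its probe in S2A/S7A, by 0.69 in S7A and by 0.73 in S2A. Among the introns higher in S2A/S7A, those that rose at their own probe included that of rfc2, a replication factor C gene (0.95, 0.89, 0.70 and 0.85 on 4 arrays, no value on replicate 4), and that of SPBPB2B2.05 (1.14, 1.17, 0.95, 0.78 and 0.98). In S2A the same 2 introns rose by 0.92 and 1.04, and in S7A they fell by 0.49 and 0.27.

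In S7E the intron of nog2, which encodes a GTPase of large ribosomal subunit assembly, read -1.97, -2.04 and -1.89 at its probe, the lowest fitted intron probe value of the 950 introns in that mutant. The exon mean of nog2 also fell, by 1.04, so that intron minus exon was -0.93 (SE 0.10, adjusted p = 4.97e-06), and the junction minus exon rose by 0.44. In S7A the probe read -1.12, -1.14, -1.24 and -1.32 and the exon mean -0.27 to -0.16, a difference of -0.99. The intron of rpl102 went the other way. Its probe read 1.70, 1.69 and 1.75 in S7E and 0.02 to 0.65 on the other 13 arrays. Intron minus exon in S7E was 1.11 (SE 0.09, adjusted p = 1.57e-07), the exon mean rose by 0.58 and the junction minus exon fell by 0.57 (adjusted p = 1.7e-05).

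The intron of gab1, the gene of a subunit of the GPI transamidase, read 0.37, 0.69 and 0.80 at its probe in S7E and -0.89, -0.57, -0.86 and -0.79 in S7A. The difference between these 2 mutants was 1.79 (SE 0.10, adjusted p = 6.8e-09). S7E and S7A also differed at the intron of rpl2501, a gene of large ribosomal subunit protein L25. Its intron probe values were 0.50, 0.55 and 0.68 in S7E and -0.78, -0.75, -0.84 and -0.64 in S7A. The double mutant, which also has alanine at serine 7, was not low there. With S7E replicate 1 left out, intron minus exon of rpl2501 was -0.50 in S7A, 0.53 in S2A/S7A and 0.94 in S2A. In that setting gab1 was at 0.57 in S2A. The intron of rib4, a gene of riboflavin synthesis, rose in S7E (intron probe 0.43, junction minus exon -0.28) and in S2A (intron probe 0.56). The intron of rpl701, a gene of large ribosomal subunit protein L7, fell in S7E at -1.10, -1.14 and -1.10, and its junction minus exon fell with it, by 0.70.

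Of the introns named for S7E, 5 rested wholly or in large part on S7E replicate 1. The intron probes of cox9, a cytochrome c oxidase subunit gene, read 3.23, 0.15 and 0.13, those of xap5 read 3.12, 0.14 and 0.23, and those of nar1, an iron-sulfur protein assembly gene, read 2.54, 0.27 and 0.20. Without that array intron minus exon went from 1.49 to 0.31 for cox9 (adjusted p = 0.23) and from 1.42 to 0.30 for xap5 (adjusted p = 0.082). For nar1 it went from 2.07 to 1.23 (adjusted p = 7.88e-07), with an exon mean that fell by 1.00. The exon mean of med7, a Mediator subunit gene, read 3.20, -0.05 and -0.13, and its difference went from -1.32 to -0.13 (adjusted p = 0.59). The exon mean of orc3, an origin recognition complex gene, read 3.40, -0.01 and -0.38, and its intron had no value on S7E replicate 2.

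In each of the 4 comparisons with WT, which may share control RNA, 48 of the 950 introns were lower and 7 higher. The matching share over all introns was not counted. Besides nmd5 and cwf29 the lower ones included the intron of cam1, the calmodulin gene. It was at -0.51 in S7A, -0.74 in S2A, -0.84 in S2A/S7A and -0.91 in S7E. The intron of pgc1 was at -0.90, -0.90, -1.02 and -1.34, and that of gcn2, the kinase of translation factor eIF2, at -0.83, -0.50, -0.42 and -0.59. The introns of gmh4 and of vps1, a dynamin-related GTPase gene, lay between -0.84 and -0.47 throughout. The intron probe of cam1 fell in each mutant, whereas that of vps1 fell only in S7A (-0.34) and its exon mean rose by 0.45 to 0.60 in the other 3. The intron of rpl102 was the one of the 8 named for this pattern that was higher in each mutant, at 0.58, 0.73, 0.43 and 1.11.

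Some of the largest differences came mainly with the exon probe. The exon mean of eaf6, the gene of a histone acetyltransferase complex subunit, read 3.31, 2.80, 2.78 and 2.76 in S7A and 3.53, 3.36, 3.17, 2.70 and 2.64 in S2A/S7A. On the S2A and S7E arrays it lay between -0.17 and 0.23. The intron probe stayed between -0.09 and 0.28 on the 15 arrays with a value, and the junction minus exon was -2.83 in S7A and -3.23 in S2A/S7A, so the intron and junction probes did not follow the single exon probe. Intron minus exon was therefore -2.83 (SE 0.13) and -2.99 (SE 0.12), the lowest values of the 950 introns in these mutants. In S2A the exon mean of mfm2, a gene of the M-factor pheromone, read -2.70, -2.60, -2.89 and -2.04 and intron minus exon was 2.34 (SE 0.16), although the intron probe was at -0.11 (adjusted p = 0.30) and had no value on S2A replicate 1. Near-identical pheromone genes may share signal at such probes. Also in S2A, SPBC2A9.13 had an exon mean of 2.75, 2.98, 2.89 and 1.80 and a difference of -2.20, and rad57, a gene of recombination repair, had an exon mean of 1.39, 1.34, 1.27 and 1.68 and a difference of -1.25. The junction minus exon of rad57 fell by 1.06, so its junction did not follow the exon either. In S7E the exon mean of klp5, a kinesin-8 gene, fell by 1.44 and that of cho1, a phospholipid methyltransferase gene, rose by 0.85.

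Genes near chromosome ends were described as a group, with raised exon values in part of them in each mutant. Of the 50 outermost protein-coding genes at each end of chromosomes I and II, in the gene order of the RefSeq assembly ASM294v3, 20 were members and 18 were tested. This window was chosen after the values of some of these genes were seen. Their exon mean rose in 14 of 18 in S2A and in 14 of 18 in S2A/S7A, with medians of 0.87 and 0.72, against 281 and 305 of all 950 members. It rose in 9 of 18 in S7A (median 0.31) and in 5 of 18 in S7E (median 0.19), where it also fell in 5, against 154 and 275 of the 950. The intron probes rose in 15 of 18 in S2A (median 0.56) and in 14 of 18 in S2A/S7A (median 0.60), against 255 and 224 of the 950. They rose in 9 of 18 in S7A (median 0.18) and in 12 of 18 in S7E (median 0.27), against 71 and 216 of the 950. Intron minus exon was lower in 7 of 18 in S7A, against 312 of the 950. In S2A it was lower in 8 and higher in 1, against 142 and 231 of the 950. In S2A/S7A it was lower in 8 and higher in 3, against 255 and 166. In S7E it was lower in 2 and higher in 4, against 210 and 194. SPAC750.06c had an exon mean of 1.82, 1.97, 1.85 and 1.47 in S2A and an intron probe of 1.34, 0.21, 0.17 and 0.88. In SPAC212.06c the 2 readouts rose alike in S2A, by 2.61 at the exon and 2.72 at the intron, and intron minus exon was 0.12 (adjusted p = 0.46). The 1 intron of the group that was higher in S2A, that of SPBPB2B2.05, rose by 1.04 at its probe with 0.17 at the exon. Many genes at these ends belong to families of near-identical copies, whose signal cannot be told apart here.

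The 62 single-intron genes of cytosolic ribosomal proteins, 59 of them tested, were the largest functional group examined. Their introns were higher in 24 and lower in 3 in S2A, higher in 17 and lower in 5 in S2A/S7A, and higher in 16 and lower in 8 in S7E. In S7A 5 were higher and 12 lower. Over all introns 20% and 19.1% were higher and lower in S2A, 16.4% and 33.6% in S2A/S7A, 18.3% and 25.7% in S7E, and 6.75% and 30.2% in S7A. The medians were 0.23 in S2A, 0.12 in S2A/S7A, 0.08 in S7E and -0.02 in S7A, beside 0.03, -0.03, 0.01 and -0.13 over all 950 introns. By array the S2A medians of the group were 0.47, 0.22, 0.27 and -0.115, so replicate 4 had the opposite sign. Those of S7A were -0.13, 0.01, -0.16 and 0.12. The S2A/S7A arrays ran from 0.02 to 0.33 and the S7E arrays from 0.06 to 0.22. The exon means of the group fell in 35 of 59 in S2A, 20 in S2A/S7A, 28 in S7E and 9 in S7A, where 27.3%, 28.2%, 28.2% and 16.8% of all genes fell. The intron probes also fell more often than they rose, in 20 against 5 in S2A, 18 against 8 in S2A/S7A, 22 against 5 in S7E and 25 against 3 in S7A. Over all introns the probe fell in 22.3% and rose in 19% in S2A, and in 36.1% and 16.6% in S2A/S7A. In S7E these shares were 24.6% and 17.9%, and in S7A 37.6% and 6.27%. The higher differences of this group in S2A thus stood beside exon values that had fallen further (median -0.33) than the intron values (median -0.11).

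**Figure D5:**
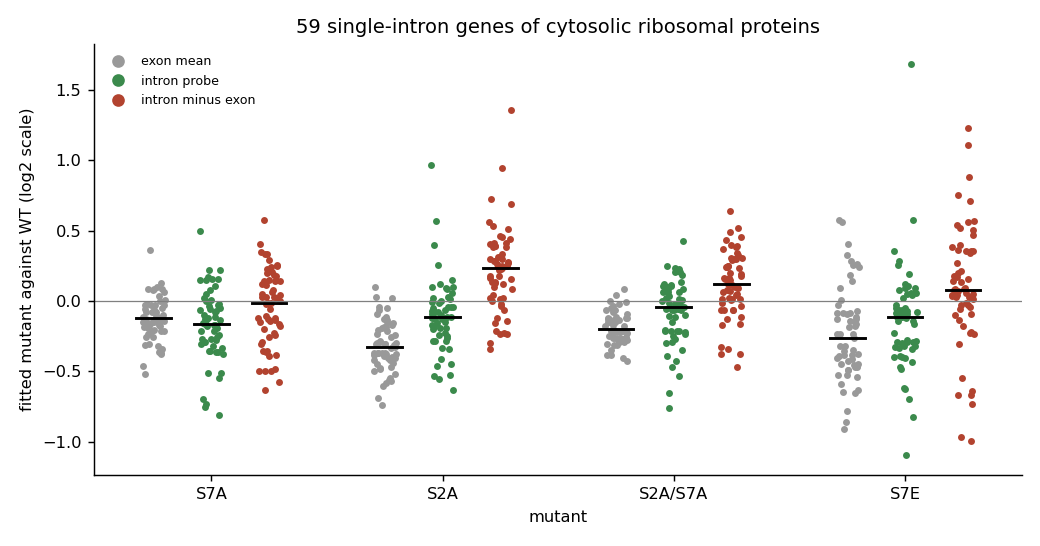
Fitted exon mean, intron probe and intron minus exon (log2 scale, mutant against WT) of 59 single-intron genes of cytosolic ribosomal proteins in each mutant; points are genes and black lines medians. In S2A the exon means have a median of -0.33, the intron probes of -0.11 and the differences of 0.23.

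Nuclear genes of the respiratory chain and ATP synthase were listed by symbol, which took in assembly genes such as cox16, cox19, atp12 and atp23. Of 15 genes 14 were tested. They had 6 introns higher and 0 lower by limma in S2A, where 20% and 19.1% of all introns were, and 7 at an unadjusted p under 0.05. Their exon means fell in 10, beside 27.3% of all genes. In S2A/S7A 7 were higher and 1 lower (16.4% and 33.6% of all introns), with exon means that fell in 10 (28.2% of all genes). S7A had 4 higher and 5 lower (6.75% and 30.2% of all introns), and S7E 3 higher and 2 lower (18.3% and 25.7%). The higher calls of cox9 and cyt1 in S7E were lost without S7E replicate 1 (adjusted p = 0.23 and 0.071). The higher call of cox9 in S2A/S7A was lost with no dye term (adjusted p = 0.0751). It was also lost without each S2A/S7A replicate in turn (adjusted p = 0.0659 to 0.127) and under some other settings. The higher call of cox6 in S7A was lost without S7A replicate 4 (adjusted p = 0.205). The median intron minus exon was 0.29 in S2A and 0.20 in S2A/S7A, beside 0.03 and -0.03 over the 950 introns. The intron probe of cox4, a cytochrome c oxidase subunit gene, was at 0.02 in S2A (adjusted p = 0.88) while its exon mean read -1.25, -1.02, -1.14 and -0.93, which gave a difference of 1.10. The exon mean of cyt1, the cytochrome c1 gene, likewise fell by 1.03 in S2A with the intron probe at 0.04, and atp3, an ATP synthase subunit gene, had a difference of 0.76 with an exon mean that fell by 0.73.

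Genes listed by symbol for mitochondrial ribosomal proteins, 11 of 15 tested, had 5 introns lower in S7A and 6 lower in S2A/S7A. In both mutants 0 of the list were higher by limma, and 5 and 6 passed an unadjusted p under 0.05. Over all introns 30.2% and 33.6% were lower in these mutants. In S2A 2 were higher and 2 lower (20% and 19.1% of all introns). In S7E 0 were higher and 1 lower by limma (18.3% and 25.7%), with 3 at an unadjusted p under 0.05. The list leaves out img2, whose intron was higher in S2A and S2A/S7A. Its S2A/S7A call was lost without S2A/S7A replicate 1, 2 or 5 (adjusted p = 0.177, 0.176 and 0.11). The introns of rsm10, rsm24 and mrpl44 were at -0.33, -0.43 and -0.58 in S7A. Among 16 tested genes of the spliceosome and of Sm or Lsm proteins, 4 were lower and 2 higher in S7A, 4 and 4 in S2A, 6 and 3 in S2A/S7A, and 3 and 1 in S7E. The shares over all introns were 30.2% and 6.75%, 19.1% and 20%, 33.6% and 16.4%, and 25.7% and 18.3% in the same order. The medians of these 16 were 0.06, 0.07, 0.06 and -0.02. The intron of prp4, a kinase gene of the splicing machinery, was at -0.33 in S7A, 0.48 in S2A and 0.32 in S2A/S7A. That of cwf7 was at -0.58 in S7E and -0.52 in S2A/S7A, with a junction that rose in both. The intron probe of cwf7 itself was at -0.008 in S2A/S7A (adjusted p = 0.92 by limma). In S7A its intron minus exon was called higher although the intron probe was at -0.46. That call was lost without S7A replicate 2, 3 or 4 (adjusted p = 0.17, 0.0878 and 0.188).

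Of 16 tested genes named for meiotic upregulation, the exon mean rose in 10 in S2A, 9 in S2A/S7A, 8 in S7E and 6 in S7A, where 31.7%, 34.8%, 32.6% and 18.1% of all genes rose. Their introns were lower in 4, 7, 4 and 5 in the same order, beside 19.1%, 33.6%, 25.7% and 30.2% of all introns. They were higher in 1, 0, 1 and 2 by limma, beside 20%, 16.4%, 18.3% and 6.75% of all introns, and 8 passed an unadjusted p under 0.05 in S2A/S7A. The 1 higher in S7E, that of mug74, lost its call without S7E replicate 1 (adjusted p = 0.082). The medians of intron minus exon were -0.11, -0.15, -0.15 and -0.16, beside 0.03, -0.03, 0.01 and -0.13 over the 950 introns. The intron of meu32 followed its exon in S2A, with an intron probe of 1.22, 1.23, 1.44 and 1.14 beside an exon mean of 0.98, 1.50, 1.74 and 1.19, and a difference of -0.09 (adjusted p = 0.365). That of mug15 stayed nearer 0, at 0.21 in S2A against an exon mean that rose by 0.71. The smaller lists hold few genes, so their counts are small. Of the 8 tested proteasome genes, 2 were lower and 1 higher in S7A (30.2% and 6.75% of all introns). In S2A 3 were lower and 1 higher (19.1% and 20%), and in S7E 1 each way (25.7% and 18.3%). In S2A/S7A 1 was lower and 0 higher by limma (33.6% and 16.4%), with 1 at an unadjusted p under 0.05. The intron of rpn12 was lower in each mutant at -0.54 to -0.30. The 7 genes of translation factors had 4 higher and 1 lower in S2A (20% and 19.1% of all introns). In S7A 1 was higher (6.75% of all introns), that of tif212, a call lost without S7A replicate 4 (adjusted p = 0.208). In S2A/S7A 0 were called by limma (50% of all introns), with 0 at an unadjusted p under 0.05. In S7E 1 was lower (25.7% of all introns), that of tef5, at -0.59 with an intron probe of -0.94, -0.86 and -0.70. Of 5 small GTPase genes, 3 were lower and 1 higher in S7E (25.7% and 18.3% of all introns). In S2A/S7A 1 was lower and 2 higher (33.6% and 16.4% of all introns), in S2A 1 each way (19.1% and 20%), and in S7A 1 was lower (30.2%). The introns lower in S7E included arf1, an ADP-ribosylation factor gene, at -0.87.

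Comparing the mutants with each other used the same model. S2A against S7A gave the most calls among the single-intron genes, 306 higher and 55 lower in S2A, where 24.9% and 6.79% of all introns were (31.7% in all). After centring, the share of higher introns among these calls was 68.1% in place of 84.8%. S7E against S7A gave 242 higher and 65 lower (20.9% and 8.64% of all introns, 29.5% in all), and the share of higher calls was 68.8% in place of 78.8% after centring. S2A/S7A against S7A gave 190 higher and 63 lower (14.8% and 8.39%, 23.2% in all). The 2 comparisons with the fewest calls were S2A/S7A against S2A, with 18 higher and 103 lower (1.98% and 10.1%, 12% in all), and S7E against S2A/S7A, with 104 higher and 51 lower (10.7% and 5.29%, 16% in all). S7E against S2A gave 66 higher and 111 lower (7.22% and 11.2%, 18.5% in all). Centring took the share of higher calls from 14.9% to 33.9% in S2A/S7A against S2A, from 37.3% to 48.1% in S7E against S2A and from 67.1% to 52.0% in S7E against S2A/S7A. Without S2A replicate 2 the 121 calls of S2A/S7A against S2A became 78, and the 103 lower ones became 65, or 68 without S2A replicate 3. Without S7A replicate 2 the lower introns became 39 in S2A/S7A against S7A and 41 in S7E against S7A. The latter became 30 without S7E replicate 1, and the 104 higher introns of S7E against S2A/S7A became 60 without S7E replicate 3.

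Among the largest differences between mutants that came with the intron probe, the intron of SPAC1F12.03c was lower in S7E than in S2A (-1.64, SE 0.13, adjusted p = 3.58e-07) and than in S2A/S7A (-1.46, adjusted p = 2.42e-06). Its intron probe fell in S7E, by 0.89, and in S7A, by 0.77, and rose in S2A, by 0.38. The intron of edc3 was 1.36 higher in S2A/S7A than in S7A (adjusted p = 6.92e-07) and that of rfc2 1.18 higher (adjusted p = 7.57e-06). The intron of dnt1 was lower in S2A/S7A than in S2A (-0.92, adjusted p = 0.000351) and 0.84 higher than in S7A (adjusted p = 0.000195), so the double mutant lay between the 2 single mutants. The same order held for mrt4, with S2A/S7A below S2A (-0.71, adjusted p = 0.000812) and 1.12 above S7A (adjusted p = 3.14e-06).

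For 3 genes a second intron probe, whose name carries a leading n that the sources used here do not explain, measured the same intron number. In ast1 both probes were higher in S2A, at 0.55 and 0.46, and in S7E, at 0.62 and 0.41. In S2A/S7A 1 of them passed the threshold (0.35, adjusted p = 0.000622) and the other did not (0.21, adjusted p = 0.13). In maf1, the gene of a repressor of RNA polymerase III, the probes read -0.18 and -0.36 in S7A, and only the latter passed. In png3 they disagreed, at 0.27 (adjusted p = 0.0082) and -0.04 (adjusted p = 0.73) in S7A. The difference between probes of 1 intron was thus as large as many of the smaller calls.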

How the data were processed

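RNA of 4 rpb1 mutants and WT was compared on 16 two-colour arrays, 7 with the mutant in Cy5 and 9 in Cy3. The deposited values were used as the authors gave them, 1 value per probe and array, taken as log2 ratios of mutant over WT. Background correction and normalization are not given in the sources used here; arrays had medians near 0. The probes' brightness was not used here, so the number of arrays limits the precision.

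Genes and probe kinds were read from the probe IDs, with a leading n, m or o dropped (IDs as written were an alternative chosen after seeing the data). Names and gene order came from the RefSeq table of ASM294v3, which matched 1041 of 1050 genes; the array's build is not named, so no coordinates are given. No column was left unmapped. Exon probes of a gene were averaged and taken off its intron and junction probes on each array. Introns measured on 2 or more arrays in each mutant were fitted with limma 3.58.1 in R 4.3.3 (lmFit, eBayes), with 4 mutant means and a dye term over all 16 arrays. Tests were two-sided, with Benjamini-Hochberg adjustment over all 4445 introns and a threshold of 0.05; the same model was run on the intron probe, the exon mean and the junction minus exon. Of 1053 members 103 were not tested, 94 of them for too few arrays and 9 for lack of an exon probe. The dye term passed for 22 of the 950 introns (1.69% of all introns).

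Genes were named by rule: the 6 highest and 6 lowest per mutant with 1 sign on its arrays, the 3 highest and 3 lowest per contrast, up to 8 called alike in all mutants, up to 4 per mutant with intron and junction moving oppositely, and up to 3 per list with the smallest p. Genes at chromosome ends were added after seeing values, and a few genes are described outside the mutant that named them. The members and the 9 gene lists were chosen with earlier results of these data known. Alternatives were no dye term, centred or scaled arrays, array weights, an exon and junction reference, the intron probe alone, complete introns, a replicate block, 3 arrays left out, repeated values left out, each mutant alone and each replicate left out. The fit was tested on simulated data. Same-numbered S7A and S2A arrays deviated together (correlations of 0.184 to 0.399), which met the criterion of above 0.1 in every pair. No other pair of mutants met it. The same-numbered S7A and S2A arrays also share a dye orientation, and the labels name no pairing. Differently numbered S7A and S2A arrays of the same dye orientation had correlations of 0.0434 to 0.266.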

Additional observations from a re-analysis of the deposited data

Results flagged for a closer look

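Of 183 groups of 4 or 5 arrays checked, 16 had 1 array far from the others of its mutant, where chance gives about 1 in 20, or 9.15. All values are intron minus exon on the log2 scale. In S7A replicate 4 was the outlying array for SPAC4A8.02c (-0.93), cyp9 (-0.78), cwf29 (-0.44), nmd5 (-0.28), prs5 (-0.046) and mus81 (0.11), each above the other 3 arrays, and replicate 1 was the lowest for dnt1 (-1.91). In S2A replicate 4 stood apart for SPBC2A9.13 (-1.54), SPAC4A8.02c (-0.57), gcn2 (-0.16) and mrl1 (0.27), and replicate 1 for mug74 (0.77). In S2A/S7A the outlying values were those of arf1 in replicate 2 (-0.74), mme1 in replicate 1 (0.86), and pho8 (0.66) and rfc2 (0.78) in replicate 3. S7E, with 3 arrays, was not checked in this way.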

How the results depend on the processing

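With the arrays centred, S7A had 138 higher and 216 lower introns in place of 68 and 312, and S2A/S7A had 253 higher in place of 166. Array weights gave 593 calls in S7A (123 higher and 470 lower), 214 lower in S2A, 212 calls in S2A/S7A against S2A, 383 in S2A/S7A against S7A, 471 in S7E against S7A, 291 in S7E against S2A and 264 in S7E against S2A/S7A. Among the 674 introns with values on all arrays, 42 were higher in S7A. Fitting a mutant alone gave 647 calls in S7E (300 higher and 347 lower) over 994 introns and 114 in S7E against S2A. Leaving out 3 arrays (S7A replicate 4, S2A replicate 4 and S7E replicate 1) gave 239 calls in S2A/S7A against S2A. The cause of these shifts was not tested. Apart from single replicates, the total calls of each comparison and the higher and lower calls of each mutant against WT stayed within 1.5 times otherwise.

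Between mutants, the calls in each direction moved as follows. In S2A against S7A the 55 lower calls became 105 when centred, 102 with array weights and 36 among complete introns. In S2A/S7A against S2A the 18 higher calls became 37 when centred, 47 with array weights and 42 without the 3 arrays, and the 103 lower ones 165 with array weights and 197 without the 3 arrays. In S2A/S7A against S7A the 190 higher calls became 296 with array weights and 286 without the 3 arrays. In S7E against S7A the 65 lower calls became 100 when centred, 41 among complete introns and 42 without the 3 arrays, and the 242 higher ones 396 with array weights. In S7E against S2A the 66 higher calls became 145 with array weights and 42 with each mutant fitted alone, which gave 72 lower in place of 111. In S7E against S2A/S7A the 51 lower calls became 95 when centred and 82 at the intron probe alone, and the 104 higher ones 193 with array weights and 171 without the 3 arrays.

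Leaving out each replicate in turn gave 36 to 80 higher introns in S7A, 112 to 217 lower introns in S7E and 78 to 156 calls in S2A/S7A against S2A. The replicate block gave 51 higher and 260 lower introns in S7A, 208 and 112 in S2A, 156 and 238 in S2A/S7A, and 174 and 153 in S7E, and 26 of 276 named values lost their call. Replicate numbers met the criterion for pairing for S7A with S2A alone, where the block gave 293 higher and 54 lower calls in place of 306 and 55 and ended none of the 6 named calls of that contrast. Over all mutants, same-numbered arrays had correlations of their deviations from -0.304 to 0.399, so elsewhere they share only a number. For S7A with S2A the number goes with the dye orientation, so pairing and dye cannot be told apart.

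The intron probe without its exon mean kept the call for 171 of 276 named values, missed the threshold for 46 and turned the sign for 59, since this setting leaves out the exon. Its log2 values follow. The sign turned in S2A/S7A for SPAC26A3.11 (-0.016), SPAC694.04c (-0.33), SPAC750.06c (1.00), SPBC21B10.08c (0.36), SPBPB2B2.14c (0.62), cox4 (-0.13), cyt1 (-0.031), eaf6 (0.098), edc3 (0.24), meu32 (0.62), mme1 (-0.14), mrpl44 (0.035), mug15 (0.12), rho5 (-0.079) and ubc16 (0.14). It turned in S2A for SPAC4A8.02c (0.15), SPAC694.04c (-0.24), SPAC750.06c (0.65), SPBC21B10.08c (0.22), SPBC2A9.13 (0.41), SPBPB2B2.14c (0.50), cox6 (-0.027), cwf7 (0.13), gad8 (0.093), mfm2 (-0.11), mme1 (-0.15), mug15 (0.21), rad57 (0.17), tif307 (-0.035) and vps1 (0.091). The sign turned in S7E for SPAC694.04c (-0.11), SPBC21B10.08c (0.26), klp5 (-0.11), mus81 (-0.21), orc3 (0.086) and rho5 (0.15). It turned in S7A for SPAC750.06c (0.53), cox4 (-0.097), cwf7 (-0.46), dpc13 (-0.031), eaf6 (0.084), etp1 (0.036), meu32 (-0.13), mfm2 (0.075), mfm3 (-0.19) and tif212 (-0.025). The sign turned in S7E against S2A/S7A for SPAC750.06c (-0.041), orc3 (0.0059) and rho5 (0.23). It turned in S2A against S7A for SPBC2A9.13 (0.32), eaf6 (-0.038), mfm2 (-0.19) and rad57 (0.19). The sign turned in S2A/S7A against S2A for SPBC2A9.13 (-0.21), eaf6 (0.053) and mfm2 (0.041). It turned in S7E against S2A for SPBC2A9.13 (-0.42) and mfm2 (0.28). The sign turned in S2A/S7A against S7A for meu32 (0.74). With array weights the S7E value of orc3 was 0.072. The other settings turned no named value. The number of arrays, 3 to 5 a mutant, and the single exon probe of most genes limit the precision.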

Other observations

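For 9 introns no exon probe of the gene was used, and their intron probes are given as log2 values of mutant over WT. That of emc5 was -0.48 ± 0.13 (SD, n = 4) in S7A and 0.67 ± 0.22 (SD, n = 3) in S7E. That of mrp49 was -0.33 ± 0.057 (SD, n = 4) in S7A and 0.58 ± 0.16 (SD, n = 4) in S2A. The intron of cox14 reached 3.27 on 1 S7E array and its lowest S7E value was -0.11.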
